A study of Gallus gallus with 12 samples.

Results

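The regions described here are stretches of chicken liver DNA that had a methylation peak in both ALV-J-resistant and neither ALV-J-susceptible library, or the reverse, among the 4 libraries with high peak coverage of chromosome W and low coverage of chromosome Z. These libraries were 3-MeDIP and 4-MeDIP from ALV-J-resistant chickens, and 8-MeDIP and 9-MeDIP from ALV-J-susceptible chickens. Joining peaks of the 4 lists that overlapped or touched gave 85377 regions, of which 4524 were group-only, with 2826 resistant-only and 1698 susceptible-only. The whole series held 12 samples, 6 of them immunoprecipitated libraries with 1 peak list each, and their lists merged into 90181 regions.

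In methylated DNA immunoprecipitation sequencing (MeDIP-seq), an antibody against methylated cytosine enriches methylated fragments, and peaks mark where they pile up over an input library made without the antibody. In vertebrate genomes most methylated cytosines lie in CpG pairs, bodies of genes and repeats are commonly methylated, and CpG-rich promoters commonly are not. ALV-J, avian leukosis virus subgroup J, is a retrovirus that causes tumours in chickens. In birds the female is the sex with unlike sex chromosomes, Z and W, while males have Z in both copies.

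Both groups were liver DNA of chickens recorded as ALV-J-resistant or ALV-J-susceptible. The labels give no line, age, sex, infection or treatment, and do not say outright that each sample number is a separate bird, so p-values measure the spread between these samples, which may be technical. Peak lists carry no expression, so the tissue label could not be checked against liver markers. The authors called each list against the matching input library. Read depth is unknown, and a missing peak means only that none passed the authors' threshold.

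The libraries were chosen by their measured peak coverage of W and Z, and the regions by the presence of peaks in these lists, so both are given as descriptions with no test. Peaks covered 185 and 181 kb per Mb of W in 3-MeDIP and 4-MeDIP, and 179 and 189 kb per Mb in 8-MeDIP and 9-MeDIP. On Z the same libraries had 30.9, 31.8, 29.9 and 31.7 kb per Mb. The libraries just outside the choice were 26-MeDIP (resistant), with 50.2 kb per Mb on W and 65.3 on Z, and 14-MeDIP (susceptible), with 53.3 and 68.1. Both are used below as libraries that had no part in defining the regions.

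The resistant W-rich lists were on average longer than the susceptible ones, but not beyond the spread between libraries. There were 64559 and 61753 peaks in 3-MeDIP and 4-MeDIP, against 55759 and 62534 in 8-MeDIP and 9-MeDIP. Resistant lists averaged 63156 ± 1984 peaks and susceptible lists 59146.5 ± 4791 peaks (SD, n = 2 each, exact two-sided permutation test, p = 0.667). The groups overlapped, since 9-MeDIP had more peaks than 4-MeDIP, and 8-MeDIP had the shortest list. Covered length averaged 44.3 ± 1.10 Mb for resistant and 43.0 ± 3.15 Mb for susceptible libraries (SD, n = 2 each, exact p = 1). With 2 libraries against 2 no test of this kind can give a p below 0.333. The resistant minus susceptible difference was 4009.5 peaks and 1.34 Mb. It was 622 peaks and -0.888 Mb without 8-MeDIP, 7397 peaks and 3.56 Mb without 9-MeDIP, and 2606.5 peaks and 0.556 Mb without 3-MeDIP. Without 4-MeDIP the difference in covered length was 2.12 Mb, and with lists of equal length it was -0.285 Mb.

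Regions found in every list were the most common kind. A peak in all 4 lists was found in 35948 regions (42.1%), in 3 lists in 11804 (13.8%), in 2 lists in 13301 (15.6%) and in 1 list in 24324 (28.5%). Regions seen in a single list numbered 8037 for 3-MeDIP, 6088 for 4-MeDIP, 3248 for 8-MeDIP and 6951 for 9-MeDIP. Similarity of lists, as the length shared by a pair over the length in either (Jaccard index), was 0.637 for the resistant pair and 0.647 for the susceptible pair. Both values lay within the 0.634 to 0.650 of the 4 mixed pairs.

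Over the full lists, the numbers of group-only regions lay within the range of regions shared by 1 resistant and 1 susceptible library. Resistant-only regions were 3.31% of all merged regions, and susceptible-only regions were 1.99%. The 4 mixed choices gave 1809 regions (2.12%) for 3-MeDIP with 8-MeDIP, 2895 (3.39%) for 3-MeDIP with 9-MeDIP, 1598 (1.87%) for 4-MeDIP with 8-MeDIP and 2475 (2.9%) for 4-MeDIP with 9-MeDIP. Together the group-only regions made up 34.0% of the 13301 regions found in exactly 2 lists (95% Clopper-Pearson interval 33.2 to 34.8%), and 2 of 6 equally common choices would make up 33.3%. Intervals here and below cover counting error only, and neighbouring regions are not independent.

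The excess of resistant-only over susceptible-only regions did not hold when the lists had equal length. The 3 choices without 8-MeDIP gave 2475 to 2895 regions and the 3 choices with it gave 1598 to 1809. When every list was reduced to its 55759 highest-scoring peaks, the length of the 8-MeDIP list, 1986 regions were resistant-only (2.58% of 76877 merged regions) and 2119 were susceptible-only (2.76%). The mixed choices then gave 1872 to 2010 regions, so that the direction had turned and the susceptible-only count stood above the mixed ones. Group-only regions of both directions together then made up 34.7% of the regions found in exactly 2 lists. Equally common choices would make up 33.3%, and no interval is given for this setting. With peaks below a score of 192.63 (the median of the 4 lists pooled) left out, 1266 of 40681 merged regions were resistant-only and 822 susceptible-only. The mixed choices there gave 727 to 1192, so the resistant-only count stood above them.

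**Figure D1:**
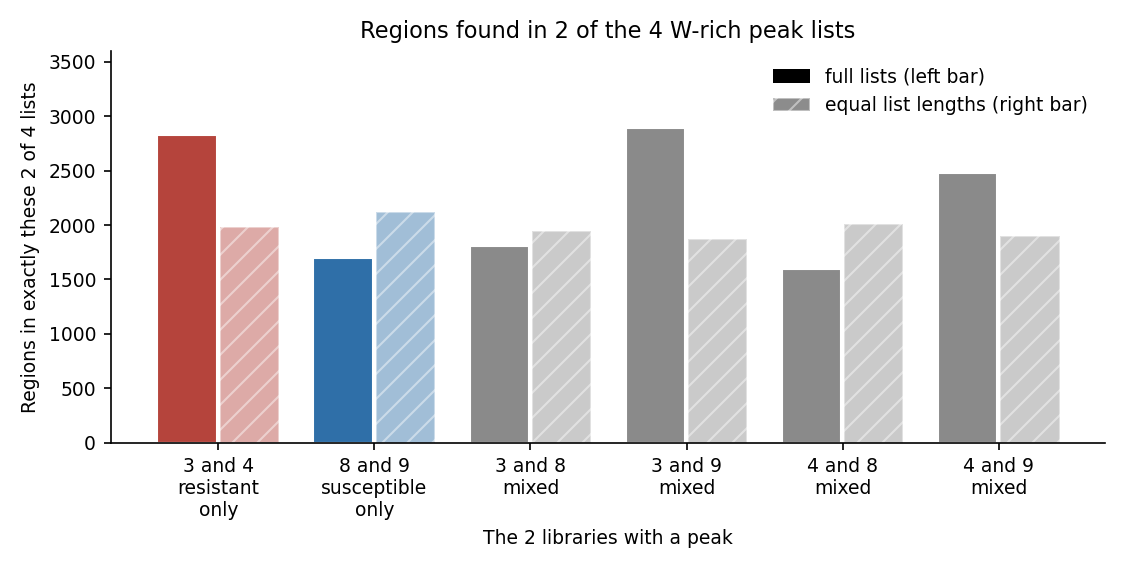
Number of merged regions (vertical axis) with a peak in exactly the 2 named W-rich libraries (horizontal axis), over the full lists (left bars) and with 55759 peaks per list (right bars). Resistant-only regions number 2826 over the full lists and 1986 with equal lists, and susceptible-only regions 1698 and 2119.

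The libraries that had no part in defining the regions had peaks in 38.5 to 39.9% of them. Of the 2826 resistant-only regions, 1128 (39.9%, 95% Clopper-Pearson interval 38.1 to 41.7%) had a peak in 26-MeDIP, the remaining resistant library, and 1088 (38.5%, 36.7 to 40.3%) had one in 14-MeDIP, the remaining susceptible library. Of the 1698 susceptible-only regions, 664 (39.1%, 36.8 to 41.5%) had a peak in 26-MeDIP and 666 (39.2%, 36.9 to 41.6%) had one in 14-MeDIP. Each group has 1 such library, so the difference between groups has no test. The mixed choices ran from 37.5 to 41.2% in 26-MeDIP and from 37.3 to 41.5% in 14-MeDIP. In resistant-only regions the 26-MeDIP share exceeded the 14-MeDIP share by 1.42 percentage points, and this turned to -0.266 without 3-MeDIP and -0.418 without 9-MeDIP.

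Regions present in 1 of the remaining libraries alone were split nearly evenly. Among resistant-only regions, 535 had a peak in 26-MeDIP and not in 14-MeDIP, and 495 had the reverse. Among susceptible-only regions, 300 had a peak in 26-MeDIP and not in 14-MeDIP, and 302 had the reverse. The mixed choice of 4-MeDIP with 9-MeDIP was further from balance, with 401 and 494. Both remaining libraries had a peak in 593 (21.0%) of the resistant-only and 364 (21.4%) of the susceptible-only regions, and neither had one in 1203 (42.6%) and 732 (43.1%). Over all merged regions the share with a peak in 26-MeDIP was 18.8% for regions of 1 list, 39.0% for 2 lists, 61.8% for 3 lists and 91.6% for 4 lists.

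**Figure D2:**
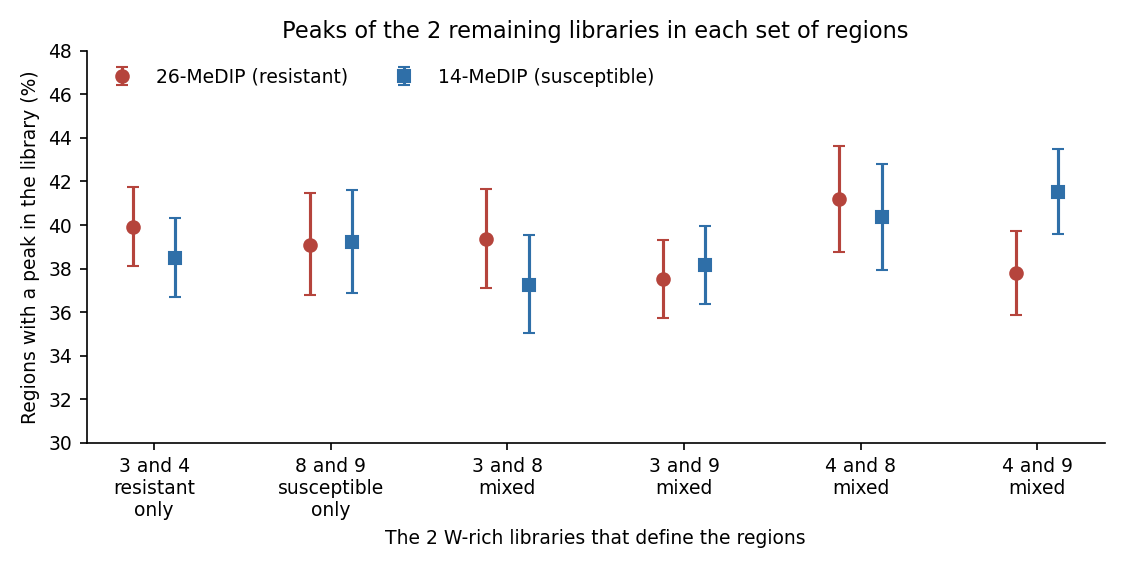
Share of regions, in percent, with a peak in 26-MeDIP (resistant, circles) and in 14-MeDIP (susceptible, squares), for each choice of 2 W-rich libraries. Bars are 95% Clopper-Pearson intervals for counting error and the axis starts at 30%. Resistant-only regions had 39.9 and 38.5%, and susceptible-only regions 39.1 and 39.2%.

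Group-only regions were short and built from weak peaks, as were the regions of the mixed choices. Resistant-only regions had a median width of 476 bp (quartiles 393 and 569 bp) and susceptible-only regions 491 bp (403 and 585 bp). Mixed choices had medians of 459 to 504 bp. By number of lists the median was 388 bp for 1 list, 483 bp for 2, 559 bp for 3 and 807.5 bp for 4. A region spans all its joined peaks, so part of this rise follows from the merging. In 99.5% of resistant-only and 99.8% of susceptible-only regions each library contributed a single peak. The widest resistant-only region measured 1654 bp and the widest susceptible-only region 1785 bp. In all, resistant-only regions spanned 1.42 Mb and susceptible-only regions 0.883 Mb.

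The authors' score of a peak was expressed as its percentile within its own list, and the lower of the 2 libraries' percentiles was used for each region. Its median was 14.1 for resistant-only regions and 13.8 for susceptible-only ones, against 11.8 to 13.6 in the mixed choices. This order did not hold with equal lists, where the medians were 12.5 and 13.4, against 12.7 to 13.7. At the pooled median score they were 12.5 and 10.7, against 11.4 to 12.2. Over the full lists the lower percentile reached 50, the middle of the list, in 58 resistant-only and 32 susceptible-only regions. In the mixed choices it did so in 22 to 61 regions. The lists end at a score of 80, and 1522 resistant-only (53.9%) and 921 susceptible-only regions (54.2%) had a lower score under 100. In the mixed choices this share was 55.6 to 59.0%. Regions nearest that limit had a lower score of 80.01 in both directions. Peaks that missed it are not listed, so how many group-only regions had such a peak in the other group is unknown.

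Regions of a higher percentile had a peak more often in both remaining libraries, in group-only and mixed choices. Of the 58 resistant-only regions with a lower percentile of 50 and above, 69.0% had a peak in 26-MeDIP and 65.5% in 14-MeDIP. Of the 32 such susceptible-only regions, 59.4% had a peak in 26-MeDIP and 62.5% in 14-MeDIP. For lower percentiles below 10, resistant-only regions had a peak in 26-MeDIP in 34.1% and in 14-MeDIP in 32.1%. Susceptible-only regions below 10 had one in 26-MeDIP in 31.1% and in 14-MeDIP in 32.0%. In the mixed choices the shares at 50 and above were 51.7 to 68.2% in 26-MeDIP and 68.2 to 75.9% in 14-MeDIP. Below 10 they were 31.2 to 34.9% in 26-MeDIP and 30.5 to 35.9% in 14-MeDIP.

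Many group-only regions lay close to a peak of the other group. The median distance from a resistant-only region to the nearest susceptible W-rich peak was 2372 bp, and from a susceptible-only region to the nearest resistant W-rich peak 2082.5 bp. Mixed choices had medians of 2109 to 2438 bp to the nearest peak of the other libraries. That peak was within 1 kb of 881 resistant-only (31.2%) and 560 susceptible-only regions (33.0%). It was more than 10 kb away from 577 (20.4%) and 316 (18.6%).

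**Figure D3:**
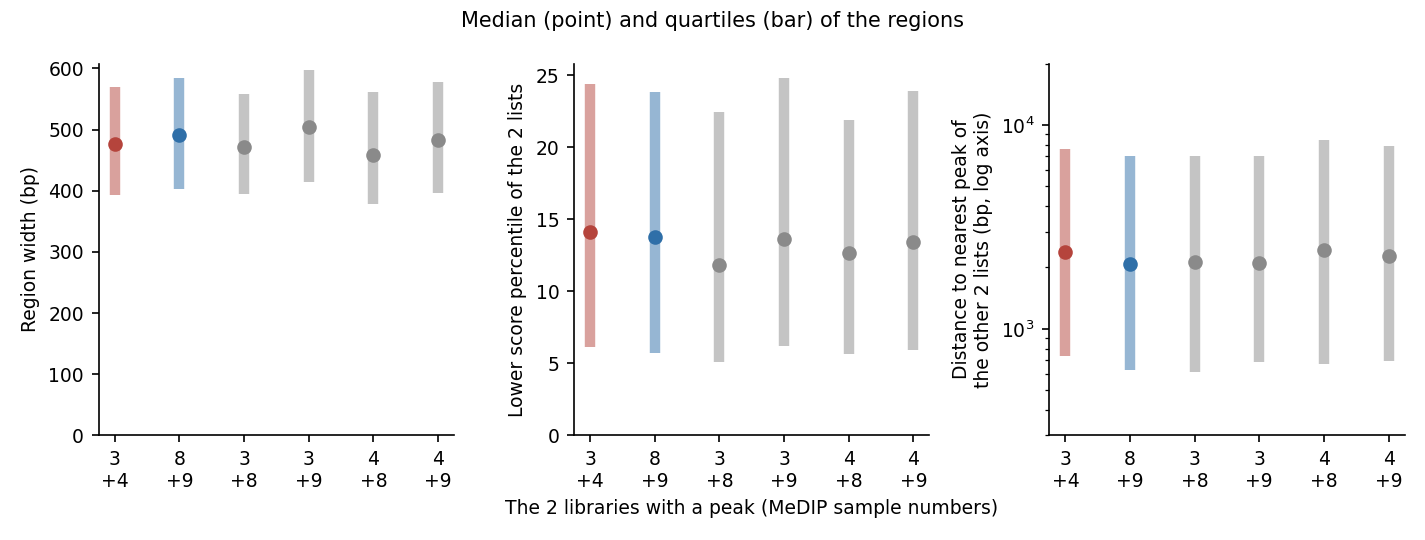
Width in bp (left), lower score percentile of the 2 lists (middle) and distance in bp to the nearest peak of the other libraries (right, log axis) for the regions of each choice of 2 W-rich libraries. Points are medians and bars run between the quartiles. The group-only medians of 476 and 491 bp lie among those of the mixed choices.

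Regions were divided by chromosome class. Macrochromosomes 1 to 5 held 1324 resistant-only (46.9%) and 819 susceptible-only regions (48.2%), against 46.9 to 49.1% of the mixed ones and 43.8% of all merged regions. Chromosomes 6 to 10 held 525 resistant-only (18.6%) and 289 susceptible-only regions (17.0%), against 15.7 to 18.3% of the mixed ones and 17.0% of all merged regions. Microchromosomes 11 to 28 held 863 resistant-only (30.5%) and 500 susceptible-only regions (29.4%). Microchromosomes held 33.8% of all merged regions and 28.8 to 30.6% of the mixed ones. On Z there were 101 resistant-only (3.57%) and 81 susceptible-only regions (4.77%), against 3.83 to 7.07% in the mixed choices and 4.75% of all merged regions. The resistant-only share lay narrowly outside the mixed range in 3 classes. It was above the range on chromosomes 6 to 10 (18.6 against at most 18.3%). It was below the range on Z (3.57 against at least 3.83%) and on chromosomes 1 to 5 (46.85 against at least 46.91%). No test was made of these shares. On W there were 10 and 5, and on the linkage group LGE64 3 and 4.

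Counts on single chromosomes were taken over the full lists and with equal list lengths. On the 26 chromosomes with at least 100 regions found in exactly 2 lists, resistant-only regions made up 15.9 to 26.4% of these and susceptible-only regions 9.52 to 21.7%. Resistant-only regions were the more numerous on 25 of the 26, and on 11 of 26 with equal list lengths. The highest resistant-only share was on chromosome 15, with 73 of 277 regions (26.4%) and 33 (11.9%) susceptible-only. With equal lists chromosome 15 had 48 (19.3%) resistant-only and 38 (15.3%) susceptible-only of 249.

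Chromosome 27 stood the other way. It had 22 resistant-only (15.9%) and 30 susceptible-only regions (21.7%) of 138, and with equal lists 14 (12.1%) and 32 (27.6%) of 116. This was the only chromosome of the 26 on which susceptible-only regions outnumbered resistant-only ones over the full lists. There they also outnumbered each mixed choice, but narrowly, with 30 against at most 29. With equal lists it was 32 against at most 19.

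**Figure D4:**
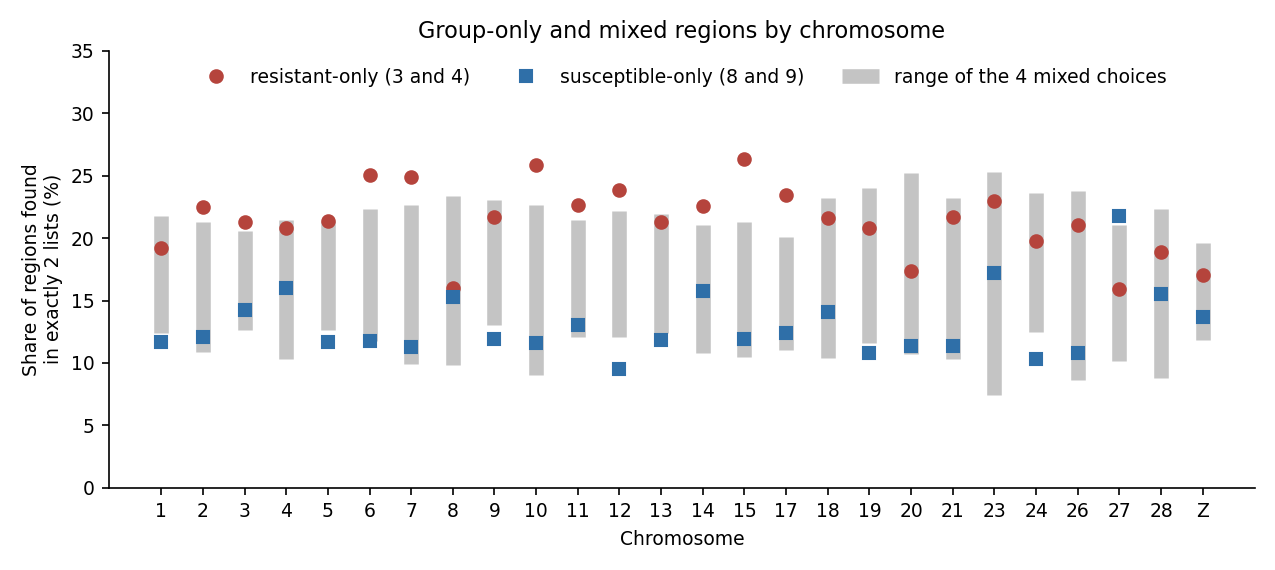
Resistant-only (circles) and susceptible-only regions (squares) as a share, in percent, of the regions found in exactly 2 of the 4 full lists, on each chromosome with at least 100 such regions. Grey bars span the 4 mixed choices. Resistant-only shares reach 26.4% on chromosome 15, and chromosome 27 is the exception with 21.7% susceptible-only.

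Runs of neighbouring group-only regions were counted next. A cluster was a run of at least 3 regions of 1 direction with no more than 10 kb between neighbours. There were 17 resistant-only clusters, holding 52 regions (1.84%), and 3 susceptible-only clusters, holding 10 (0.589%). The mixed choices had 0 to 14 clusters, holding 0 to 1.62% of their regions. The choices with most regions, 2826 resistant-only and 2895 of 3-MeDIP with 9-MeDIP, had the highest shares. With equal lists there were 7 clusters in each direction, holding 1.11% of resistant-only and 1.04% of susceptible-only regions. Mixed choices then had 0.315 to 1.23%. With peaks below a score of 192.63 (the median of the 4 lists pooled) left out, the shares were 0.474% of resistant-only and 1.09% of susceptible-only regions. Both lay within the 0.413 to 1.39% of the mixed choices. With neighbours up to 50 kb apart, clusters held 15.5% of resistant-only and 7.07% of susceptible-only regions, against 5.44 to 14.6% in the mixed choices. With 1 library left out, its group is defined by a single list. The shares of resistant-only and susceptible-only regions were then 7.70 and 3.46% without 3-MeDIP and 11.8 and 3.46% without 4-MeDIP. They were 5.93 and 8.07% without 8-MeDIP, and 7.41 and 2.97% without 9-MeDIP. The mixed choice of 3-MeDIP with 9-MeDIP held the cluster with most regions, 8 of them on Z between 53086075 and 53112520, while the group-only clusters held 3 or 4.

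The first resistant-only cluster by size had 4 regions in 25266 bp at chr13:2521917-2547182. A peak in 26-MeDIP was present in 3 of them and in 14-MeDIP in 1. Of the clusters with 3 regions, the shortest by span were chr9:16305559-16312171, chr20:10300403-10307444, chr15:2746934-2755604 and chr6:25595764-25605258. Over these 4 clusters 26-MeDIP had a peak in 1, 0, 1 and 3 of the 3 regions, and 14-MeDIP in 2, 2, 1 and 1. Of these 5 clusters, those on chromosomes 13 and 6 had more regions with a peak in 26-MeDIP than in 14-MeDIP.

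The susceptible-only clusters were chr27:492961-514408 with 4 regions, chr27:286675-291460 with 3 and chrZ:73822458-73830666 with 3. In the first, 26-MeDIP and 14-MeDIP each had a peak in all 4 regions. In the second, 26-MeDIP had a peak in 2 regions and 14-MeDIP in 1. In the third, on Z, each had a peak in all 3. Peaks of these 2 libraries covered more of Z than those of the W-rich libraries. The mixed cluster on Z also had a peak of each in all its 8 regions.

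In fixed windows of 1 Mb, the densest resistant-only windows were 7000001 to 8000000 on chromosome 15, with 17 regions, 2000001 to 3000000 on chromosome 23, with 15, and 16000001 to 17000000 on chromosome 13, with 14. Merged regions of every kind numbered 292, 253 and 238 in these windows. Each window held 10 resistant-only regions with equal lists. The window on chromosome 15 had 6 susceptible-only and 5 to 10 mixed regions of each kind. Of its 17 resistant-only regions, 7 had a peak in 26-MeDIP and 7 in 14-MeDIP. The window on chromosome 23 had 4 susceptible-only and 2 to 12 mixed regions of each kind, and that on chromosome 13 had 6 and 5 to 8. Mixed choices reached 18 in a window, on chromosomes 4 and 24, both with 3-MeDIP and 9-MeDIP. Those 2 windows held 230 and 233 merged regions. The densest susceptible-only windows were the first Mb of chromosome 27, with 14 regions, 73000001 to 74000000 on Z, with 9, and 12000001 to 13000000 on chromosome 4, with 8. Merged regions of every kind numbered 167, 251 and 128 in these 3 windows. The Z window also held 5 resistant-only and 3 to 7 mixed regions of each kind, and that on chromosome 4 held 7 and 3 to 5. With equal lists the Z window held 11 susceptible-only, 5 resistant-only and 2 to 11 mixed regions. That on chromosome 4 then held 11, 6 and 1 to 6.

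The first Mb of chromosome 27 held 14 of the 30 susceptible-only regions of that chromosome, against 2 resistant-only and 1 to 3 of each mixed choice in the full lists. With equal lists the window also held 14 susceptible-only regions, and 12 of the first 14 overlapped one of them. They lay between 216884 and 576652. A peak was present in 26-MeDIP, a resistant library, in 12 of the 14 and in 14-MeDIP, a susceptible library, in 8. Between 492961 and 576652 (83.7 kb), 3-MeDIP and 4-MeDIP had 0 peaks, while 8-MeDIP and 9-MeDIP had 7 each, covering 5.14 and 5.59 kb. In the same stretch 26-MeDIP had 8 peaks covering 7.69 kb and 14-MeDIP had 5 covering 4.07 kb. The absence of peaks was thus found in 2 of the 3 resistant libraries. This stretch was chosen after its values were seen, and it runs from the first to the last of 7 neighbouring susceptible-only regions. The 0 against 7 peaks in the W-rich libraries therefore follows largely from the rule. From the end of the stretch at 576652 to 600 kb, 9-MeDIP, 26-MeDIP and 14-MeDIP had further peaks, and 3-MeDIP, 4-MeDIP and 8-MeDIP had none. Before the stretch all 6 libraries had peaks.

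The 10 highest-ranked resistant-only regions, by the lower score percentile, had values of 64.1 to 72.2. The first was chr13:1123184-1124472 (1289 bp), with scores of 355.51 in 3-MeDIP, 720.05 in 4-MeDIP and 187.87 in 26-MeDIP and no peak in 14-MeDIP. The second, chr4:29373945-29374549, had scores of 328.86 and 393.58 in the W-rich resistant libraries, 321.81 in 26-MeDIP and 171.21 in 14-MeDIP. The third, chr11:6932934-6933383, had 436.12 and 343.69 there, 385.5 in 26-MeDIP and 169.63 in 14-MeDIP. The last of these was isolated, with susceptible W-rich peaks no closer than 38882 bp.

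The regions ranked 4 and 5, chr4:85249230-85250669 and chr4:85257715-85259014, belonged to 1 cluster of 3 regions on chromosome 4. Over the cluster's 13.4 kb, from 85249230 to 85262653, peaks covered 7.16 kb in 3-MeDIP, 2.98 kb in 4-MeDIP and 6.26 kb in 26-MeDIP, against 0.23 kb in 8-MeDIP, 0 kb in 9-MeDIP and 0.6 kb in 14-MeDIP. Every resistant library lay above every susceptible library here. For the 4 W-rich libraries this follows largely from the rule, since the stretch is the span of resistant-only regions. The 2 libraries not used to find the regions had the same order. Peaks on both flanks were present in all 6 libraries. The cluster was picked out after its values were seen, those of 26-MeDIP and 14-MeDIP included, so these 2 libraries give no independent check of it. Its 3 regions had a peak in 26-MeDIP in 3 and in 14-MeDIP in 0. The resistant-only cluster chr2:67160473-67173103 showed the reverse, with 0 of 3 in 26-MeDIP and 3 in 14-MeDIP. The region ranked 4 was no longer resistant-only when peaks up to 500 bp apart were joined, nor was the region ranked 5 when at least 50% of it had to be covered.

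The remaining named resistant-only regions were chr9:7180512-7181500, chr15:4545857-4546596, chr10:6913494-6914026, chr9:1099071-1100047 and chr1:121641807-121642462. Of all 10, 9 had a peak in 26-MeDIP and 5 in 14-MeDIP. The exception without a 26-MeDIP peak, on chromosome 1, had a score of 126.88 in 14-MeDIP. In the region ranked 6, chr9:7180512-7181500, 14-MeDIP had the higher percentile of the remaining libraries, 73.2 (score 390.74) against 33.6 (score 139.18) in 26-MeDIP.

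**Figure D5:**
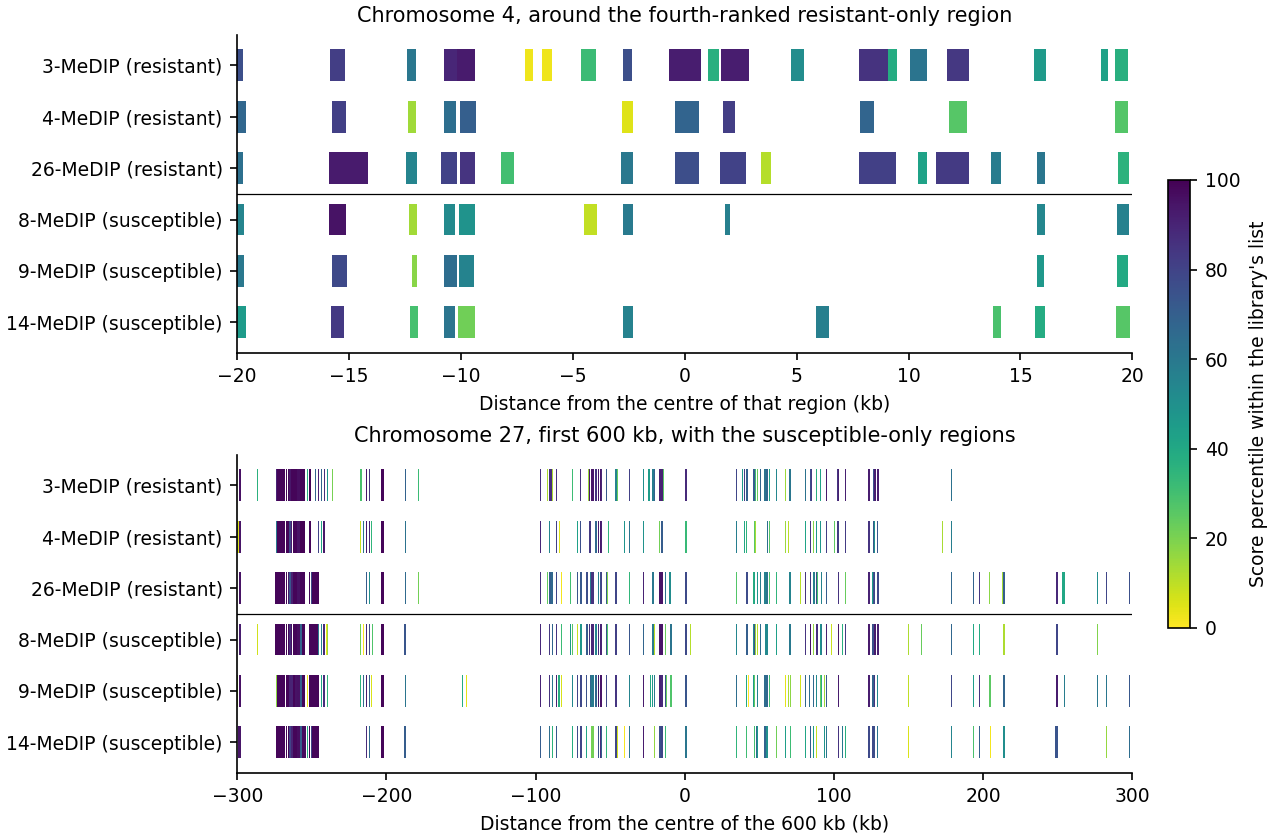
Peaks of the 6 libraries (rows, resistant above susceptible) as distance in kb from the centre of the fourth-ranked resistant-only region on chromosome 4 (top) and from the centre of the first 600 kb of chromosome 27 (bottom), shaded by score percentile within each list. On chromosome 4 the resistant libraries hold 2.98 to 7.16 kb of peaks in the cluster and the susceptible libraries at most 0.6 kb. On chromosome 27 the stretch with 0 peaks in 3-MeDIP and 4-MeDIP holds 8 in 26-MeDIP. The cluster and the stretch were picked out after their values were seen, and both are spans of group-only regions.

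The 10 highest-ranked susceptible-only regions had lower percentiles of 59.5 to 92.5. The first, chr1:113300794-113301162 (369 bp), had scores of 2503.67 in 8-MeDIP, 1248.95 in 9-MeDIP and 173.61 in 14-MeDIP, and 573.37 in the resistant library 26-MeDIP. A resistant W-rich peak lay 107 bp away, so the region bordered on a peak of the other group. The second, chr27:548502-549941, and the third, chr27:233842-234817, were in the first Mb of chromosome 27. Their score percentiles were 88.3 and 76.5 in 26-MeDIP (scores 949.8 and 470.42). Those in 14-MeDIP were lower, 73.9 and 40.7 (scores 400.92 and 156.94).

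The fourth, LGE64 from 486052 to 486998, had 451.6 in 26-MeDIP and 167.47 in 14-MeDIP. Resistant W-rich peaks lay 98 bp from the third region and 189 bp from the fourth. The regions ranked 1, 3 and 4 were no longer susceptible-only when peaks up to 500 bp apart were joined. The others were chr4:11593314-11593814, chr3:101956456-101957247, chr6:6487192-6487858, chr13:1168121-1168967, chr24:3026300-3027064 and chr5:48876153-48876580. Of the 10, 7 had a peak in 26-MeDIP and all 10 had one in 14-MeDIP. The 3 without a 26-MeDIP peak, on chromosomes 4, 6 and 24, had scores of 197.08, 143.69 and 218.86 in 14-MeDIP. The region on chromosome 13 had 509.57 in 26-MeDIP and 97.97 in 14-MeDIP.

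The tilt of the 10 highest-ranked regions towards the library of their own group was not seen in the 50 highest-ranked. Among the 50 highest-ranked resistant-only regions, 32 had a peak in 26-MeDIP and 33 in 14-MeDIP. Among the 50 highest-ranked susceptible-only regions, 31 had a peak in 26-MeDIP and 32 in 14-MeDIP. Mixed choices also had uneven counts in their 10 highest-ranked regions. With a peak in 26-MeDIP and in 14-MeDIP there were 9 and 6 for 3-MeDIP with 8-MeDIP, and 9 and 8 for 3-MeDIP with 9-MeDIP. There were 7 and 8 for 4-MeDIP with 8-MeDIP, and 5 and 8 for 4-MeDIP with 9-MeDIP.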

How the data were processed

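Liver MeDIP libraries of ALV-J-resistant and ALV-J-susceptible chickens were compared through the peak lists the authors deposited, 1 per library. Per the labels' protocols, DNA was purified by phenol–chloroform extraction and read from both ends over 150 bases. Per the submitters' processing notes, cutadapt, Bowtie2 and the build galGal4 were used. The names of the lists and peaks record calling with MACS per library against its own input, with a threshold of 1e-08. On tool versions and duplicate reads nothing is given in the sources used here. The score in the deposited lists appears, by its range, to be the negative log10 of p times 10. It is the authors' own value and rises with depth, so regions were ranked by percentile within a list. Raw scores appear for single regions, in the counts under 100 and in the alternatives on score. Between lists such raw scores are not directly comparable. Depth per library is unknown.

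Positions are on galGal4, counted from 1. No genome or annotation of that build was used, so genes, promoters and sequences are not analysed here. Chromosome length was the highest peak end in any list. The members and tests were chosen with earlier results of these data known. Peaks were merged where they overlapped or touched, and a library was present in a region where it had a peak. No test was made per region. Regions named are, per direction, the 10 highest by lower score percentile (the highest peak where a list had several), the 5 clusters with most regions (ties by shorter span) and the 3 densest windows of 1 Mb. Alternatives tried were a stricter score minimum of 192.63 (the median of the 4 lists pooled), equal lists of 55759 peaks, leaving out each library, leaving out Z, W and LGE64, a peak cover of 50%, joining up to 500 bp, fixed windows of 1000 bp and clusters joined up to 50 kb. On simulated lists with 85377 positions, 200 of 200 planted resistant-only and 100 of 100 susceptible-only regions were recovered. The simulated positions lay apart from one another and no mixed regions were simulated, so this checked the counting only. Python 3.11.15, pandas 2.3.3, numpy 2.4.6, scipy 1.17.1 and matplotlib 3.10.9 were used.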

Additional observations from a re-analysis of the deposited data

How the results depend on the processing

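Across the alternatives 9 values changed sign, and the cause was not tested beyond what a setting does by construction. The difference in peak number, resistant minus susceptible, was 0 with equal lists, by construction, 1668 at the pooled median score and 622 to 7397 with 1 library left out. At the pooled median score 1266 of 40681 merged regions were resistant-only and 822 susceptible-only, against 727 to 1192 in the mixed choices. Together the group-only regions there made up 34.8% of regions in 2 lists, against 33.3% for equally common choices, with no interval given. In fixed windows 4020 of 133814 windows were resistant-only and 2645 susceptible-only, both within the 2368 to 4263 of the mixed choices. Leaving out 1 library, which loosens the definition, gave 5498 to 10982 resistant-only and 4424 to 8706 susceptible-only regions. Merged regions then numbered 78206 to 82864, and the share of regions in 2 lists that follow the groups is undefined. The difference in covered length, in the same direction, was -0.285 Mb with equal lists and -0.888 to 3.56 Mb with 1 library left out. The excess of 26-MeDIP over 14-MeDIP in resistant-only regions was -0.418 to 2.40 percentage points with 1 library left out. The excess of 14-MeDIP over 26-MeDIP in susceptible-only regions, 0.118 points, was -0.270 at 50% cover, -0.956 when peaks up to 500 bp apart were joined, -1.58 at the pooled median score and -0.782 to 1.27 with 1 library left out. Of the 10 named regions per direction, 8 resistant-only and 7 susceptible-only were found again after joining up to 500 bp. At 50% cover and in fixed windows at least 9 per direction were found again. At the pooled median score and with equal lists all 10 per direction were found again. That was fixed by construction, since these settings remove only low-scoring peaks and the named regions score higher. Without Z, W and unplaced sequence the only named region lost was that on LGE64, which the setting itself removes. No paired analysis was possible because sample numbers are not shared between the groups. Since depth is unknown, an absent peak may be one that was missed.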
